A study of Mus musculus with 14 samples.

Results

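H3K27ac sites around 10 genes of the matrix metalloproteinase system were analysed in immortalised mouse embryo fibroblasts (iMEF). The genes were 7 proteases (Mmp2, Mmp3, Mmp9, Mmp10, Mmp12, Mmp13 and Mmp14) and 3 of their inhibitors (Timp1, Timp2 and Timp3). A site was assigned to a gene when any base of it lay in the annotated gene body or within 20 kb of either end. By this rule 106 sites of 122228 in the list belonged to the 10 genes, and 0 sites were shared between them. The proteases were divided into the 4 genes of the protease cluster on chromosome 9 (Mmp3, Mmp10, Mmp12 and Mmp13) and the other 3, and both were set beside the inhibitors.

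The cells expressed FKBP-HA2-ASH2L, a human ASH2L fused to FKBP-F36V and delivered by a lentiviral construct, and exon 4 of the endogenous Ash2l had been deleted with Cre-ER in all of them. ASH2L belongs to the core of all COMPASS/KMT2 complexes, the methyltransferases of histone H3 lysine 4, and dTAG-13 links the tagged protein to Cereblon of an E3 ubiquitin ligase, which leads to its degradation. Chromatin immunoprecipitation and sequencing (ChIP-seq) with an antibody to H3K27ac comprised 2 libraries of control cells without dTAG, for which the labels use WT, and 2 libraries each after 30 min, 2, 4, 8 and 16 h of dTAG, and input chromatin was sequenced once for control cells and once after 16 h. The cells were a single clone, NG3, as the study states. The peaks of all samples had been joined into 1 list of positions without a value for any sample. This list alone was used, and the changes between time points were not analysed here. Thus the values below have no replicate error or read depth, no test was made, and a site may come from control cells, from treated cells or from both.

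Matrix metalloproteinases are zinc-dependent endopeptidases that degrade collagens, proteoglycans and other components of the extracellular matrix. Most are secreted as inactive precursors, and TIMPs block the active enzymes by binding to the catalytic site. Fibroblasts are a major source of several of them, and the collagenase and stromelysin genes are classical targets of the transcription factor AP-1. Acetylation of lysine 27 of histone H3 marks active promoters and enhancers.

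To relate the sites to the promoters themselves, the bases upstream of the transcription start sites (TSS) of RefSeq were searched. The table of promoter sequences matched 8 of the 10 genes, with 2 starts for Mmp12. Mmp2 and Mmp9 had no entry. Shown are 100 bases that end directly before the start, 5′ to 3′ on the coding strand, from GRCm38.p6. They are given for the 4 cluster genes because each carried an AP-1 element in the same stretch close to the start. Capitals mark the AP-1 sequence TGANTCA.
Mmp13, chr9:7272414-7272513: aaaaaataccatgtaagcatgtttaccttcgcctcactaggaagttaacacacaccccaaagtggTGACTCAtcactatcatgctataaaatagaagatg
Mmp12, second start, chr9:7347274-7347373: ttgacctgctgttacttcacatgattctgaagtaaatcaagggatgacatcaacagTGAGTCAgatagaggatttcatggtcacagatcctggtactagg
Mmp3, chr9:7445722-7445821: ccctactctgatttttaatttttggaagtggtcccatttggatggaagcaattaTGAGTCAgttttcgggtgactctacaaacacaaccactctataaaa
Mmp10, chr9:7502242-7502341: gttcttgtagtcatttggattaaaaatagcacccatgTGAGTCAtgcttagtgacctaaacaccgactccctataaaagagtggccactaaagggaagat

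The first base of the element was at position -35 in Mmp13, -44 in Mmp12, -46 in Mmp3 and -63 in Mmp10, counted from -1 at the base before the start. Mmp13 had TGACTCA, and the other three had TGAGTCA. The palindromic motif was searched on both strands within 250 bases upstream of the start. It was found in 6.75% of 32851 RefSeq promoters, in all 4 cluster genes and in none of Mmp14, Timp1, Timp2 and Timp3. A match is a sequence in this window and does not show that a factor binds there. The other start of Mmp12 had no match.

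The promoters of Mmp14 and Timp1 are shown for comparison. Here capitals mark GGGCGG or its complement CCGCCC, the core of the GC box bound by SP1, and the matches of Mmp14 lie side by side.
Mmp14, chr14:54431498-54431597: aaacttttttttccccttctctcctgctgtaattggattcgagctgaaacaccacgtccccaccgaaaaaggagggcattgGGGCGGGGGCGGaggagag
Timp1, chrX:20870066-20870165: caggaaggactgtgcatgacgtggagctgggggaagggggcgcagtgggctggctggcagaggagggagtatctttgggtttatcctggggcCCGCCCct

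A GC box was found in all 4 of Mmp14, Timp1, Timp2 and Timp3, compared to 32.7% of RefSeq promoters, and in none of the cluster genes. TGTGGTT, a RUNX motif, matched in the promoter of Mmp13 at -119 (4.40% of promoters), and GGAATG, a TEAD motif, in that of Timp1 at -247 (12.6%). Both motifs were searched on both strands.

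The AP-1 elements of the cluster genes were all outside H3K27ac sites. The nearest site was 60 bp away in Mmp3, 410 bp in Mmp13, 1648 bp in Mmp10 and 41079 bp in Mmp12. In contrast, the GC boxes of Mmp14, Timp2 and Timp3 were inside sites of 7763, 6006 and 2783 bp. That of Timp1 was in a gap, 63 bp from the nearest site.

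The map of sites around each gene gives the positions on which the following values rest. A dense group of sites lay over the promoter and the gene body in Mmp2, Mmp14 and Timp2. At Timp1 most sites were upstream of the gene, and those of Timp3 were spread along the gene. The cluster genes had sites of at most 599 bp, 8 at Mmp13 and 1 to 4 at the others, and Mmp9 had no site.

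**Figure D1:**
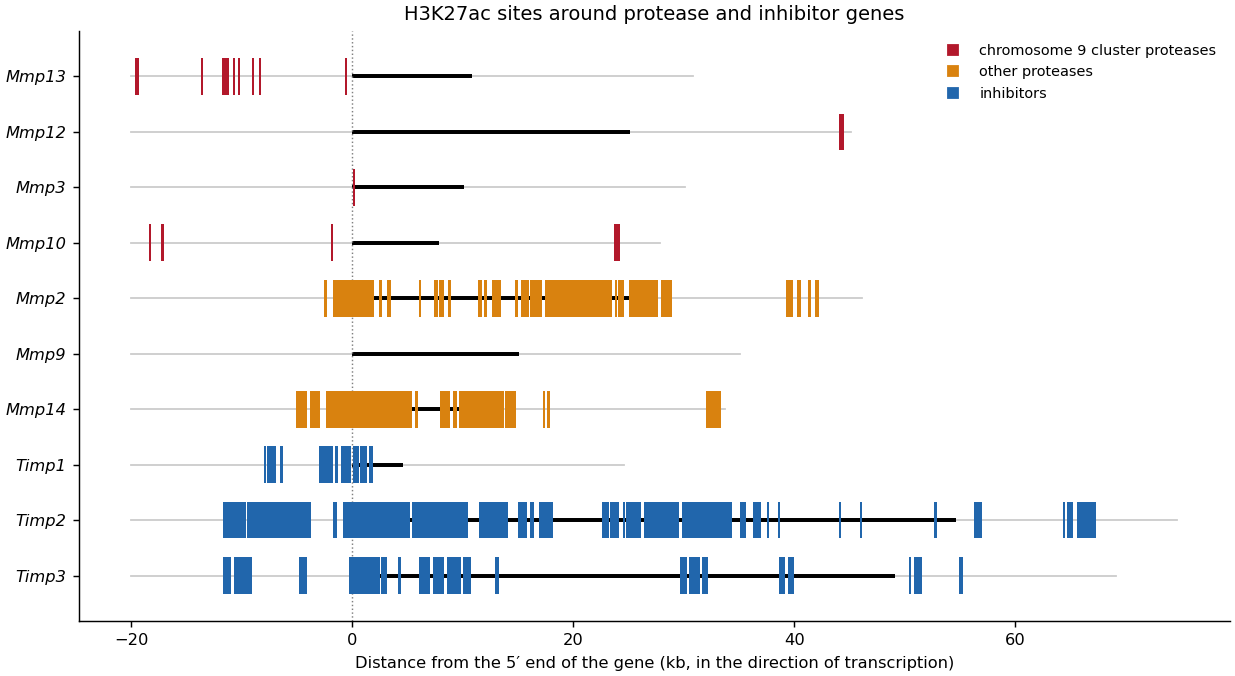
H3K27ac sites (coloured blocks, to scale) around each of the 10 genes, by distance in kb from the 5′ end in the direction of transcription. Black lines are gene bodies and grey lines the 20 kb on either side. Timp2 had 27 sites, Mmp2 24 and Timp3 20, compared to 8 for Mmp13, 4 for Mmp10, 1 each for Mmp12 and Mmp3 and 0 for Mmp9.

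Mmp13, collagenase 3, is the main interstitial collagenase of mouse fibroblasts (chr9:7272514-7283331, plus strand). It had 8 sites, which is 1.57 per 10 kb of window, and 4.47% of the bases of the window were inside sites. All 8 were upstream of the gene, between -19669 and -445 bp of its 5′ end, and 0% of the gene body was covered. Their widths were between 200 and 599 bp, with a median of 216 bp, and 3 of them had exactly 200 bp, the smallest width in the list. The site nearest to the gene, of 218 bp, was at -662 to -445 bp and so did not reach the start.

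A single site of all 14 in the cluster windows contained TGANTCA, and it was also upstream of Mmp13, at -10815 to -10602 bp. This site and the nearest one are printed in full from the plus strand of GRCm38.p6, since they are the AP-1 site and the promoter site of Mmp13. Capitals again mark TGANTCA, which is absent from the second.
Mmp13 distal site, chr9:7261699-7261912: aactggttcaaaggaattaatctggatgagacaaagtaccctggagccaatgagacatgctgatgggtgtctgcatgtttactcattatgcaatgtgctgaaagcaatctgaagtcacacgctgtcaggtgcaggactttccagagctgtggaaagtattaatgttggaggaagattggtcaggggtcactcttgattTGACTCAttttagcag
Mmp13 promoter site, chr9:7271852-7272069: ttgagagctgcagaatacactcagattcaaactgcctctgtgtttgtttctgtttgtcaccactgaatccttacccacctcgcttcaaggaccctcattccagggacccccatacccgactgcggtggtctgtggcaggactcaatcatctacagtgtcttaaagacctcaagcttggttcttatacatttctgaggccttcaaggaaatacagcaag

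Mmp3 (chr9:7445822-7455975) and Mmp10 (chr9:7502352-7510240) encode stromelysins 1 and 2, which degrade proteoglycans and activate other proteases. Mmp3 had 1 site (0.199 per 10 kb, 0.419% of bases). It was 210 bp wide, at 20 to 229 bp from the 5′ end, where it overlapped coding and untranslated exon sequence, and 2.07% of the gene body was covered. Mmp10 had 4 sites (0.835 per 10 kb, 2.42% of bases). The widths were 209, 215 and 213 bp upstream, starting at -18431, -17292 and -1933 bp, and 521 bp downstream, starting at 23679 bp. No site was in the body of Mmp10.

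Mmp12 (chr9:7344381-7369499) encodes macrophage elastase. Its window had 1 site of 459 bp (0.154 per 10 kb, 0.705% of bases), at 44034 bp from its 5′ end, which was the promoter site of the neighbouring Mmp1b, a collagenase gene on the opposite strand. Without this site, Mmp12 had none within 20 kb. The body of Mmp12 was without a site, as were those of Mmp13 and Mmp10.

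The whole protease cluster comprises 10 genes from Mmp13 to Mmp7, and over 467 kb, including 20 kb at each end, it had 20 sites. This is 0.428 per 10 kb, with 1.53% of bases in sites and a widest site of 910 bp. The longest stretch without a site measured 116 kb and contained the body of Mmp13, Mmp12 and Mmp1b. Further stretches of 82.6 and 57.0 kb contained Mmp20 and the sequence up to the start of Mmp3. The sites upstream of Mmp13 made up 8 of the 20.

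**Figure D2:**
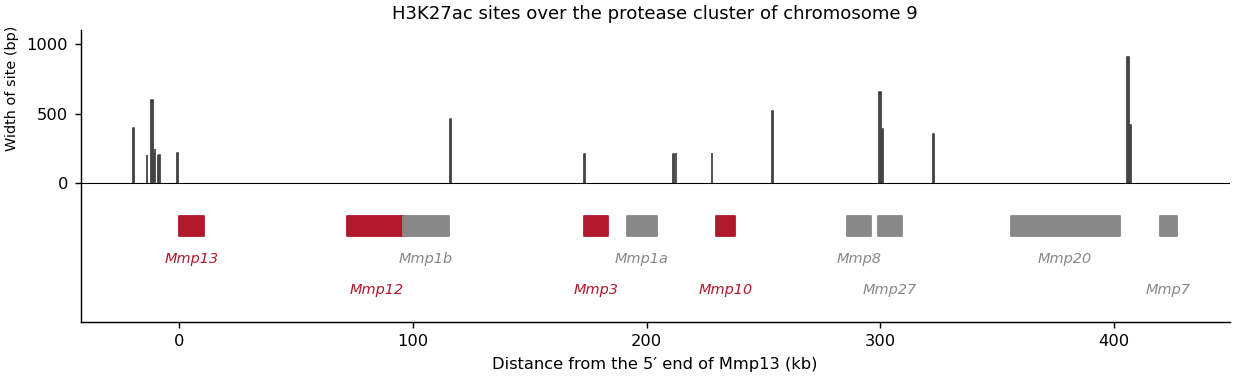
The protease cluster of chromosome 9, by distance in kb from the 5′ end of Mmp13. Vertical bars are the 20 sites, with a height equal to their width in bp (drawn wider than to scale along the axis), and blocks are genes, with the 4 described here in red and the others in grey. The widest site, of 910 bp, was beyond Mmp20, and 116 kb without a site followed the last site upstream of Mmp13.

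Among the other proteases, Mmp2, gelatinase A, degrades denatured collagen and type IV collagen (chr8:92827291-92853420). It had 24 sites, 3.63 per 10 kb, the highest density of the 10 genes, and 32.0% of the window and 57.8% of the gene body were inside sites. A site of 3681 bp spanned the 5′ end, from -1751 to 1929 bp. The widest, of 6070 bp, was in the 3′ part of the gene, at 17454 to 23523 bp. In all, 18 of the 24 sites overlapped the gene body and 1 was upstream. The site of 960 bp at 27958 to 28917 bp covered the start of the downstream gene Lpcat2. When sites less than 1 kb apart were joined, the 24 sites made up 6 regions, of which the widest measured 14213 bp.

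Mmp14, the membrane-type protease MT1-MMP that activates the precursor of Mmp2 at the cell surface, had 11 sites (chr14:54431612-54445364, 2.05 per 10 kb). They covered 33.8% of the window and 80.6% of the gene body, the highest share of a gene body among the 10. The widest site of all, 7763 bp, reached from -2343 to 5419 bp around the 5′ end, and another of 4071 bp, at 9681 to 13751 bp, lay over the 3′ part of the gene. Sites of 1006 and 1353 bp were at the starts of the neighbouring genes Mrpl52 and Lrp10.

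Mmp9, gelatinase B, shares substrates with Mmp2 and is produced by leukocytes among other cells. It had 0 sites in its body and the 20 kb on either side (chr2:164940780-164955850). The next sites were 28.1 kb upstream, with a width of 2450 bp, and 78.1 kb downstream, so that Mmp9 was in a stretch of 121 kb without a site. The start of the neighbouring Slc12a5, a neuronal chloride transporter gene, was in the same stretch. The gelatinases were thus at opposite ends of the order by density among the 10 genes.

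Timp1 (chrX:20870166-20874735) encodes an inhibitor of most secreted proteases of the family. The gene is nested in Syn1, which is on the opposite strand, and had 10 sites (2.24 per 10 kb, 12.1% of bases, 33.6% of the gene body). All were between -8004 and 1905 bp of the 5′ end, and their widths were between 221 and 974 bp. No site covered the 5′ end itself, which was in a gap between a site ending at -119 bp and one starting at 60 bp. When sites less than 1 kb apart were joined, they formed 2 regions, of which the wider one measured 4918 bp. The X chromosome had few sites, with a median of 0.0413 per 10 kb over its 948 protein-coding genes, and 98.8% of these had a lower density than Timp1.

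Timp2 (chr11:118301069-118355740, minus strand) encodes the inhibitor that binds both Mmp2 and Mmp14 and takes part in the activation of Mmp2. It had the most sites of all 10 genes, 27 (2.85 per 10 kb), and the highest share of the window in sites, 42.6%. In the body this was 51.3% and in the 20 kb upstream 45.2%. A site of 6006 bp reached from -827 to 5178 bp across the 5′ end. Sites of 5798 bp (-9553 to -3756 bp), 5038 bp (5436 to 10473 bp) and 4474 bp (29852 to 34325 bp) were also among the widest, and those of 5038 and 4474 bp were in introns. Joining sites less than 1 kb apart gave 9 regions with a widest of 16119 bp. Sites of 1720 and 537 bp were at the promoter of the downstream gene Usp36, and one of 2563 bp was at a start of Cep295nl, which is inside Timp2.

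Timp3 (chr10:86300372-86349506) encodes the inhibitor that is bound to the extracellular matrix, and the gene is nested in Syn3 on the opposite strand. It had 20 sites (2.24 per 10 kb), which covered 17.4% of the window and 22.1% of the gene body. A site of 2783 bp spanned the 5′ end, from -268 to 2514 bp, and was the widest of Timp3. The others were spread along the gene, with a group of 5 sites between 6063 and 10733 bp and another of 3 between 29684 and 32207 bp. The density was the same as that of Timp1 to 3 digits, but a larger share of bases was in sites.

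To put these values into context, the same measures were computed for all 21755 protein-coding genes on chromosomes 1 to 19 and X. The median was 0.488 sites per 10 kb and 3.19% of bases, and the upper quartiles were 1.10 and 8.11%. Mmp2 was above 98.6% of these genes by density, Timp2 above 96.7%, Timp1 and Timp3 above 93.3% each and Mmp14 above 91.7%. The cluster genes ranged from 29.1% for Mmp12 and 32.4% for Mmp3 to 65.7% for Mmp10 and 85.6% for Mmp13. By share of bases, Mmp13 was above 58.8% of genes only, since its sites were narrow. The order also changed among the genes with many sites, and Timp2 (99.4%), Mmp14 (98.5%) and Mmp2 (98.2%) were then the highest of the 10. At least 1 site in the window was found for 9 of the 10 genes, compared to 75.0% of all protein-coding genes.

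**Figure D3:**
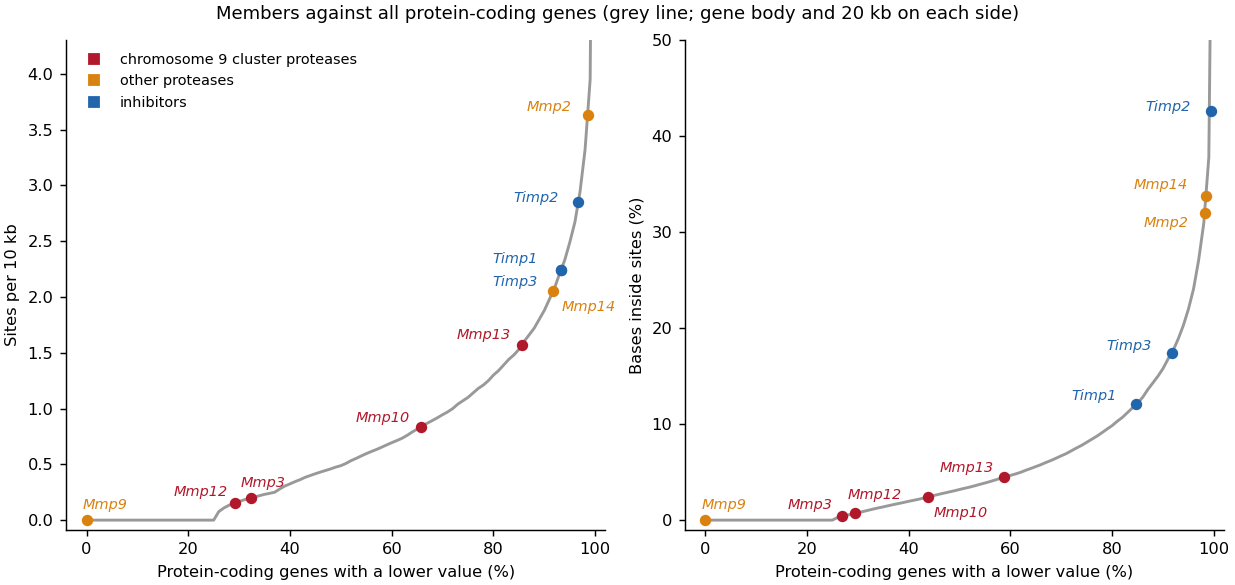
Sites per 10 kb (left) and percent of bases inside sites (right) of the 10 genes (points, coloured by group), against the percent of protein-coding genes with a lower value. The grey line gives the values of all protein-coding genes. On the left Timp1 and Timp3 coincide at 2.24 sites per 10 kb. Mmp2 is highest on the left and Timp2, at 42.6%, on the right, and Mmp9 is at 0 in both.

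Compared as groups, the cluster proteases had 14 sites in 214 kb (0.654 per 10 kb, 1.92% of bases), the other proteases 35 sites in 175 kb (2.00 per 10 kb, 22.5% of bases) and the inhibitors 57 sites in 228 kb (2.50 per 10 kb, 26.8% of bases). Each group held 3 or 4 genes, which are not replicates, and the genes of a group differed widely. Among the other proteases, the range was from 0 (Mmp9) to 3.63 per 10 kb (Mmp2). The cluster genes reached 1.57 per 10 kb at most (Mmp13), whereas each of the inhibitors had at least 2.24. In the gene bodies alone the order of the other proteases and the inhibitors was inverted, with 4.19 sites per 10 kb for the other proteases and 3.41 for the inhibitors, compared to 0.185 for the cluster genes. It was also inverted without Mmp9, when the other proteases had 2.92 sites per 10 kb and 32.8% of bases, whereas they had 1.01 per 10 kb without Mmp2. Without Mmp13 the cluster genes had 0.368 sites per 10 kb, and without Timp2 the share of bases of the inhibitors was 15.6%. When sites less than 1 kb apart were joined, the densities were closer, with 0.467 per 10 kb in the cluster, 0.572 at the other proteases and 0.920 at the inhibitors.

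The position of the sites also differed between the groups. In the cluster, 11 of 14 sites were upstream of the gene to which they were assigned and 1 was in a gene body. Mmp13 alone had 8 of these 11, and without it 3 of 6 sites were upstream. Of the sites at the other proteases 23 of 35, and of those at the inhibitors 37 of 57, overlapped the gene body. These counts were not corrected for the share of the windows made up by gene bodies, which was largest for the inhibitors and smallest for the cluster. The 18 remaining downstream sites comprised 2 of the cluster, 9 of the other proteases and 7 of the inhibitors. Sites at the promoters of other genes made up 7 of the 106.

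The widths also differed between the groups, though not for every gene. The median width was 214 bp in the cluster, 427 bp at the other proteases and 594 bp at the inhibitors, compared to 401 bp over all sites. By gene, it was 210 bp at Mmp3, 214 bp at Mmp10 and 216 bp at Mmp13, but the single site of Mmp12 measured 459 bp. It was 367 bp at Mmp2, 942 bp at Mmp14, 458 bp at Timp1, 564 bp at Timp2 and 668 bp at Timp3. A width of no more than 265 bp, the lower quartile of the list, was found for 10 of the 14 cluster sites (71.4%), 4 of 35 at the other proteases (11.4%) and 12 of 57 at the inhibitors (21.1%). Of the 10 cluster sites, 6 belonged to Mmp13. The widest cluster site measured 599 bp. Sites above 1 kb were 0 in the cluster, 9 at the other proteases and 13 at the inhibitors, compared to 15.9% of the whole list. A site above 4 kb was found near 3 of the 10 genes (Mmp2, Mmp14 and Timp2), compared to 5.40% of all protein-coding genes, and these had 7 such sites together.

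**Figure D4:**
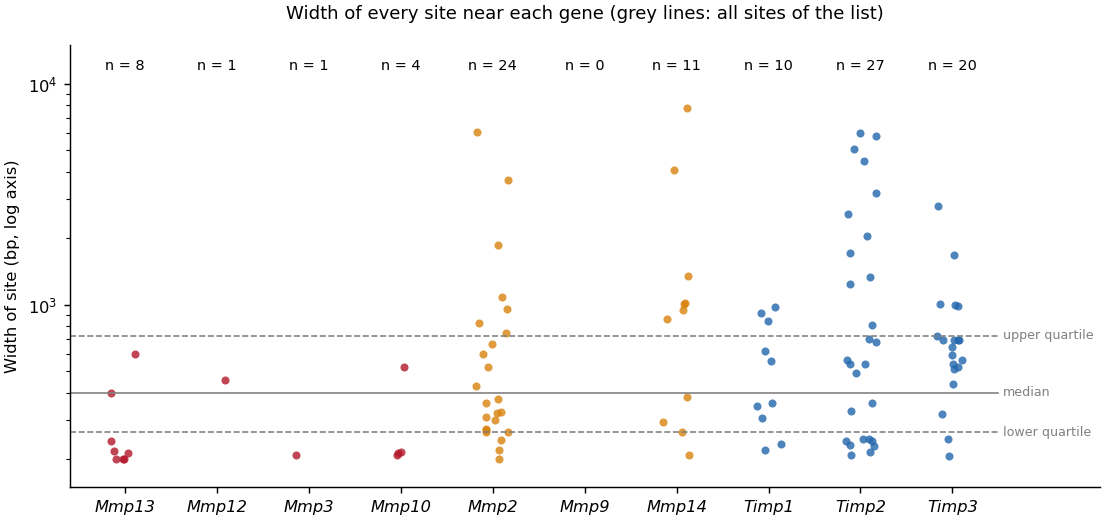
Width in bp (log axis) of each of the 106 sites by gene, with the number of sites above. The grey lines are the quartiles of all sites of the list, at 265, 401 and 723 bp. Most points of the cluster genes (red) lie below the lower quartile, and those above 4 kb belong to Mmp2, Mmp14 and Timp2.

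A promoter site was taken as a site whose middle was within 1 kb of an annotated TSS of the gene. This was the case for 6 of the 10 genes (Mmp3, Mmp13, Mmp2, Mmp14, Timp1 and Timp3), which is a share close to the 54.7% of all protein-coding genes. Timp2 did not count because the middle of its promoter site of 6006 bp was more than 1 kb inside the gene. By any overlap with the 1 kb window it counted and the number was 7. In Mmp14 and Timp3 the middle of the site across the 5′ end was also more than 1 kb inside the gene. These 2 genes counted only through another annotated TSS. With the outermost 5′ end as the only TSS, 4 genes counted (Mmp3, Mmp13, Mmp2 and Timp1). The sites of Mmp3 and Mmp13 were among the narrowest 25% of the list, and without those 4 genes remained. The annotated 5′ end was inside a site in Mmp2, Mmp14, Timp2 and Timp3, that is in 4 of 10 compared to 36.5%, and in 0 of the 4 cluster genes.

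The CpG content of the promoters was compared because CpG-rich and CpG-poor promoters differ in how often they have a site. In the 1 kb around the 5′ end, the ratio of observed to expected CpG was between 0.0725 and 0.181 in the cluster genes, 0.218 in Mmp9, 0.299 in Timp1, 0.464 in Mmp2, 0.549 in Timp2, 0.623 in Mmp14 and 0.664 in Timp3, compared to a median of 0.558 over all protein-coding genes. Mmp14 and Timp3 reached a ratio of 0.6 with a GC content of at least 50% and were counted as CpG-rich. Both had a promoter site by any annotated TSS, as did 85.0% of all CpG-rich genes by the same rule. Of the other 8 genes, 4 had a promoter site (Mmp3, Mmp13, Mmp2 and Timp1), compared to 30.2% of CpG-poor genes. The 5 genes with the lowest ratios, the cluster genes and Mmp9, also had the lowest shares of bases in sites among the 10, and the part of base composition in this was not tested.

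**Figure D5:**
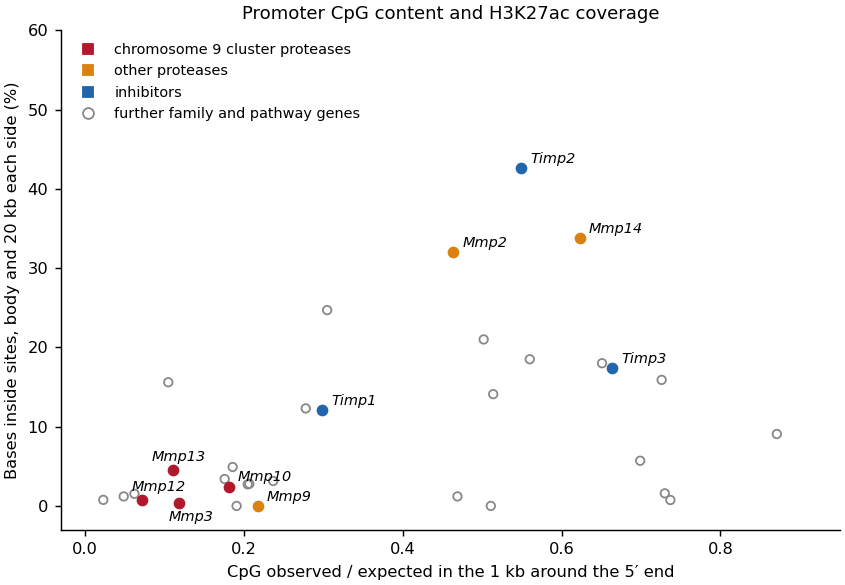
Observed to expected CpG ratio in the 1 kb around the 5′ end against the percent of bases inside sites in the gene body and 20 kb on either side. Filled points are the 10 genes, coloured by group, and open circles are 23 further genes of the family and pathway. The cluster genes and Mmp9 have ratios of at most 0.218 and at most 4.47% of bases.

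The 300 bp around the middle of each site were then searched for the same motifs on both strands. At sites narrower than 300 bp, which include most of the cluster sites, this window also takes in flanking sequence. TGANTCA was found in 13 of the 106 sites (12.3%), compared to 12.4% of all sites. There was 1 match among the 14 cluster sites, 3 among the 35 of the other proteases and 9 among the 57 of the inhibitors. The RUNX motif was in 9.43% of the sites (7.17% of all sites), the TEAD motif in 21.7% (18.2%) and the GC box in 6.60% (9.82%). Thus the AP-1 sequence, which all 4 cluster promoters had, was about as frequent in the sites near the 10 genes as in the list as a whole. In whole sites it was found in 27.4%, compared to 21.1% of all sites, and wider sites hold more sequence to match.

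Near the limit of 20 kb there were few sites. Between 15 and 20 kb from a gene end there were 8 sites with a median width of 362 bp, and between 20 and 25 kb there were 4 with a median of 406 bp. The last site inside was at 19271 bp from Mmp13 (399 bp wide) and the first one outside at 21102 bp from Timp1 (532 bp wide). Most of the sites just inside the limit belonged to cluster genes, among them the only site of Mmp12 and most of those of Mmp10. With a flank of 10 kb the density of the cluster proteases was 0.373 per 10 kb, compared to 0.654 with 20 kb.

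Other genes of the family and of the plasminogen system, which activates several of the proteases, were examined by the same measures. Of 23 such genes, 21 had a site in the window and 13 a promoter site, compared to 75.0% and 54.7% of all protein-coding genes. The 6 remaining genes of the chromosome 9 cluster (Mmp1a, Mmp1b, Mmp7, Mmp8, Mmp20 and Mmp27) had a median of 0.495 sites per 10 kb and 2.12% of bases, with a promoter site in 2 (Mmp1b and Mmp27). Windows in the cluster overlap, so that these values are not independent of those above. The 3 sites of Mmp1a were also counted at Mmp3 or Mmp10, and the site of Mmp1b at Mmp12. Sites were also shared between Mmp8 and Mmp27 and between Mmp7 and Mmp20. The 10 family proteases elsewhere had a median of 0.540 per 10 kb and 5.33% of bases, with a promoter site in 6. They ranged from 0 sites at Mmp21 and Mmp25 to 11 at Mmp28 (1.77 per 10 kb, 18.5% of bases) and 9 at Mmp11 (1.69 per 10 kb, 14.1%). Mmp19, whose ratio of observed to expected CpG was 0.105, had 7 sites with 15.6% of bases and a site across its 5′ end.

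The 7 further genes comprised inhibitors, regulators and the proteases Plau and Plat of the plasminogen system, and 5 of them had a promoter site. Their medians were 1.38 sites per 10 kb and 12.3% of bases, which are the values of Plat. Timp4, the remaining inhibitor of the family, had 2 sites (0.398 per 10 kb, 4.91% of bases) and no promoter site, and was below Timp1, Timp2 and Timp3 in both measures. Reck, a membrane-anchored inhibitor, had 8 sites with a widest of 6056 bp. Bsg, the inducer of protease production also known as basigin, had 8 sites with 15.9% of bases. Plau, the urokinase gene, had 19 sites (4.07 per 10 kb, above 99.1% of protein-coding genes), and Plaur, its receptor, had 8 sites with a widest of 8621 bp. The 5′ end of Plaur was inside a site, but Plaur did not count as having a promoter site. No site had its middle within 1 kb of a TSS of Plaur. Plat and Serpine2 had 9 and 8 sites, with 12.3% and 3.14% of bases.

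The label of the cells was checked against marker genes. Of 10 fibroblast markers, 8 had a site in the window and 7 a promoter site, compared to 75.0% and 54.7% of all protein-coding genes. The medians of these markers were 2.75 sites per 10 kb and 22.4% of bases. Col1a1 reached 67.4%, while Dcn and Lum had 0 sites. The 5′ end of Col1a1 was inside a site, but no site had its middle within 1 kb of a TSS. Col1a1 therefore did not count as having a promoter site. The medians were 0.540 per 10 kb for 6 macrophage and leukocyte markers, with a promoter site in 2, and 0.533 for 4 endothelial markers, with a promoter site in 1. Among the former, the number of sites was between 0 at Adgre1 and 8 at Cd68 (1.91 per 10 kb, 21.0% of bases). The window of Csf1r, which had a promoter site, overlapped that of the fibroblast marker Pdgfrb. Sites in the overlap can thus count in both lists. The 5 epithelial markers had a higher median of 1.50 per 10 kb and 10.9% of bases, with a promoter site in 1. Epcam and Krt5 had 0 sites, whereas Cdh1 and Krt8 had 16 each and Krt18 had 12, so that sites near markers were not limited to those of fibroblasts. The windows of Krt8 and Krt18 overlap, both with a widest site of 5320 bp, so that their counts are not independent. Mmp2, Mmp14 and the 3 inhibitors had densities between 2.05 and 3.63 per 10 kb, compared to 1.57 or less for the 4 cluster proteases and Mmp9. Beside the median of 2.75 of the fibroblast markers, Mmp2 and Timp2 were higher and the other 8 genes lower.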

How the data were processed

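The members and all gene lists were chosen with earlier results of these data known. ChIP-seq reads of 14 libraries in 8 groups were processed by the authors with Trim Galore, BWA (mm10), SAMtools and Picard, which merged the replicates, and narrow peaks were called with MACS. Whether peaks were called on merged reads, the version, the threshold and the way in which peaks of all samples were joined are not given in the sources used here. The deposited file holds a chromosome, start and end in base pairs for each site, and no count, signal or score, so that widths may exceed those in any single sample and read depth is unknown. Starts were taken as 0-based, which gives the narrowest sites a width of 200 bp, and are printed 1-based.

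Genes were taken from GENCODE M21 on GRCm38.p6, an earlier release than that of the authors, and RefSeq promoters were of the same build. All 10 members, 23 further genes of the family and pathway, the marker genes and any protein-coding gene overlapping a member's window or starting in it were eligible to be named, and 1 further gene of the pathway list is not reported here. Density was sites per 10 kb of gene body plus 20 kb on either side. Since only positions were used, values are descriptions and no test was run. Alternatives changed the flank, the promoter window, the TSSs, the sites kept, their merging and the genes in a group. Interval counts and motif searches were tested on simulated data. Python 3.11.15, numpy 2.4.6, pandas 2.3.3, scipy 1.17.1 and matplotlib 3.10.9 were used.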

Additional observations from a re-analysis of the deposited data

How the results depend on the processing

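Of 70 alternatives to 9 results, 47 moved the value by no more than 1.5-fold or stayed inside the 95% Wilson interval of a share, and 23 moved it further. The interval was used for the share of sites with TGANTCA only. It treats neighbouring sites of a gene as independent, and searches of other lengths were set against it, so it is a limit for sorting and not an error. The cluster proteases had the lowest density and share of bases of the 3 groups under every change of flank, site filter or merging. The number of sites near the 10 genes was 61 in gene bodies alone and 41 with sites less than 1 kb apart merged. Density of the cluster proteases was 0.185 per 10 kb in gene bodies, 0.373 with a flank of 10 kb, 0.415 with 50 kb and 0.187 without the narrowest 25% of sites, and their share of bases was 0.389%, 0.777%, 1.21% and 0.924%. Without 1 gene at a time these values were between 0.368 (without Mmp13) and 0.873 per 10 kb and between 1.12% and 2.45%. For the other proteases density was 4.19 in gene bodies, 1.27 with 50 kb and 0.572 after merging, the share 47.7% in gene bodies and 13.4% with 50 kb, and the ranges without 1 gene were 1.01 to 2.92 per 10 kb and 16.7% to 32.8%. For the inhibitors density was 1.59 with 50 kb and 0.920 after merging, the share 16.4% with 50 kb, and the ranges without 1 gene were 2.24 to 2.66 per 10 kb and 15.6% (without Timp2) to 32.8%. TGANTCA was in 27.4% of whole sites. A longer flank lowers densities by adding sequence farther from the genes, and merging lowers counts by construction. No paired analysis was possible because the positions used here carry no value for a replicate.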
